A study of Homo sapiens with 9 samples.

Results

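The genes described here are 8 members of the interleukin-1 (IL-1) pathway: the ligands IL1A, IL1B and IL18, the receptor chains IL1R1 and IL1RAP, the adaptor MYD88 and the kinases IRAK1 and IRAK2. They were picked by symbol from the 24344 genes of the count table, and all 8 were among the 14195 genes that passed the filter on low counts, with at least 92 counts in every library. The pathway was chosen from a readout of these same libraries, with the levels of IL1A and IL1B in the 3 treatments already known. The levels and differences of the 8 genes are therefore given as a description, without p-values; where a gene is said to be called, this only sorts its values by the threshold of the study and is no evidence. MDA-MB-231 is an established human breast adenocarcinoma cell line. It received, for 48 h, Compound Kushen Injection (CKI), which is made from the herbs Kushen and Baituling, or an injection of Kushen alone or of Baituling alone. CKI was given at 2.0 mg/mL of total alkaloids, and the single-herb injections at the equivalent dilution. Each treatment had 3 libraries, described by the submitters as biological replicates of a single cell line, and no untreated library was analysed here, so every difference below is between treatments.

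The 9 libraries held 20144628 to 23782071 counts. Expression is given in CPM, where each count is put on a shared library size after TMM, a scaling that takes most genes as unchanged. Libraries of 1 treatment lay within 0.325 log2 units of each other over all genes tested (root mean square) and libraries of different treatments at least 0.399 apart, so no library stood with another treatment. Markers of the cell line were present: VIM, CD44, CAV1, AXL and ANXA1 summed to 2086 to 2174 CPM in CKI, 2702 to 2774 CPM in Kushen and 5260 to 5430 CPM in Baituling. ESR1 and PGR, the hormone receptors that this line lacks, had at most 4 counts in any library. The luminal and epithelial markers GATA3 (9.12, 9.40 and 23.3 CPM after CKI, Kushen and Baituling) and CDH1 (0.779, 0.587 and 2.01 CPM), listed as low in this line, were detected and highest after Baituling. Of 8 myeloid markers, PTPRC, ITGAM, SPI1, AIF1 and CD163 had at most 9 counts in any library, while CD14 was at 5.94 to 10.1 CPM and CSF1R at 3.18 to 4.01 CPM as group means. LYZ was at 0.210, 0.152 and 0.615 CPM after CKI, Kushen and Baituling and passed the filter only through Baituling. The summed myeloid markers ran from 11.9 to 13.1 CPM in CKI, 8.01 to 10.6 CPM in Kushen and 13.9 to 15.4 CPM in Baituling, the same order as IL1B below, and their part in that result was not tested.

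IL-1 is a family of inflammatory cytokines. IL1A and IL1B bind the receptor chain IL1R1, which pairs with the accessory chain IL1RAP; the paired receptor recruits the adaptor MYD88 and then the IRAK kinases, and the signal ends in NF-kB and MAP kinase activity. IL18 uses a receptor pair of its own but the same adaptor and kinases. IL1B and IL18 are made as precursors that caspase-1 cuts in inflammasomes, whereas the IL1A precursor is already active and is cut by calpain. IL1A and IL1B messages are themselves induced by NF-kB, and breast carcinoma cells of the basal type are known to express both.

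IL1A lies on chromosome 2 at 113531502 to 113542070 and IL1B at 113587328 to 113594393, both on the minus strand of build GRCh37 (hg19), the build of the counts. As the results turn on how differently these neighbouring genes ranked the 3 treatments, the 250 bases before the start of each are shown. The sequences are from RefSeq on GRCh38.p14, which held a promoter for 7 of the 8 genes and none for IL18. Capitals mark matches to the AP-1 motif TGANTCA and to TGACNNNGC, the core of the NRF2 response element.
IL1A, chr2:112784494-112784743, minus strand: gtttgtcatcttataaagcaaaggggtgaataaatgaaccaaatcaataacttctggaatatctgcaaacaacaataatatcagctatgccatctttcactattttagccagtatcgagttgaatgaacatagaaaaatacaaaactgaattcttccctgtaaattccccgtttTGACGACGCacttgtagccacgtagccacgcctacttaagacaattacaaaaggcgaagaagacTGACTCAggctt
IL1B, chr2:112836780-112837029, minus strand: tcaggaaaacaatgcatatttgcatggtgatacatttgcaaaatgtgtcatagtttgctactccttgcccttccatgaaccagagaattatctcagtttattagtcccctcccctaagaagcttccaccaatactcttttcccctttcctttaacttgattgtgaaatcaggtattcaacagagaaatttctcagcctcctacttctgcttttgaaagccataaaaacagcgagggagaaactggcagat
The IL1A window held 1 AP-1 match starting at position -12 and 1 NRF2 core match at -76, counted from the start of the gene. The IL1B window held none of the 3 motifs searched on both strands, which were these 2 and the NF-kB motif. Over 34943 RefSeq promoter windows of the same length, 6.59% held the AP-1 motif, 10.9% the NRF2 core and 9.95% the NF-kB motif. Of the other members, IL1R1 held 1 NRF2 core match and IRAK1 held 1 NF-kB and 1 NRF2 core match, while the windows of IL1RAP, MYD88 and IRAK2 held none of the 3. RefSeq held 2 windows for IL1A and 4 for IL1R1, and the window closest to the outer start of the gene was used. A match describes the letters of a window and not a bound site. Sites beyond the 250 bases were not searched, and whether a motif bears on the order of the treatments was not tested.

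Among the ligands, each gene ranked the 3 treatments differently. IL1A was highest after CKI and lowest after Kushen, IL1B was highest after Baituling and lowest after Kushen, and IL18 was highest after Kushen and lowest after Baituling. In bulk RNA, a change in every cell and a change in the share of cells that express a gene cannot be told apart.

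IL1A measured 18.5, 18.8 and 17.6 CPM in the 3 CKI libraries, 5.19, 5.05 and 4.08 CPM in the Kushen libraries, and 8.49, 9.32 and 11.2 CPM in the Baituling libraries. The groups did not overlap, and CKI exceeded both single-herb injections. The means were 18.3 ± 0.632, 4.77 ± 0.603 and 9.65 ± 1.36 CPM (SD, n = 3 each), and the log2 difference was 1.93 ± 0.11 (SE) for CKI against Kushen, 0.93 ± 0.10 for CKI against Baituling and -1.01 ± 0.12 for Kushen against Baituling.

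IL1B, the secreted ligand that inflammasomes activate, measured 23.8, 27.2 and 26.9 CPM after CKI, 12.352, 11.488 and 12.997 CPM after Kushen, and 36.6, 39.5 and 38.6 CPM after Baituling. Here CKI lay between the single-herb injections, again with no overlap. The means were 26.0 ± 1.87, 12.3 ± 0.757 and 38.3 ± 1.46 CPM (SD, n = 3 each). The log2 differences were 1.08 ± 0.07 (SE) for CKI against Kushen, -0.56 ± 0.07 for CKI against Baituling and -1.64 ± 0.07 for Kushen against Baituling. The values against Baituling depended on the scaling beyond these SEs. They were -0.27 for CKI and -1.43 for Kushen with library totals, where the order stayed and the groups still did not overlap.

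IL18, an inducer of interferon gamma in lymphocytes, is on chromosome 11 at 112013976 to 112034819 on the minus strand. It overlaps a read-through gene, ENSG00000255292, on the opposite strand, whose reads the unstranded libraries could not separate. It measured 28.9, 29.8 and 27.6 CPM after CKI, 34.9, 34.2 and 30.6 CPM after Kushen, and 15.6, 15.5 and 15.6 CPM after Baituling. Kushen and CKI were close and Baituling far lower, the reverse of IL1B. The means were 28.8 ± 1.07, 33.2 ± 2.34 and 15.5 ± 0.0274 CPM (SD, n = 3 each), with log2 differences of -0.21 ± 0.06 (SE), 0.89 ± 0.07 and 1.10 ± 0.07 in the same order of contrasts. With library totals the CKI and Kushen libraries overlapped.

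**Figure D1:**
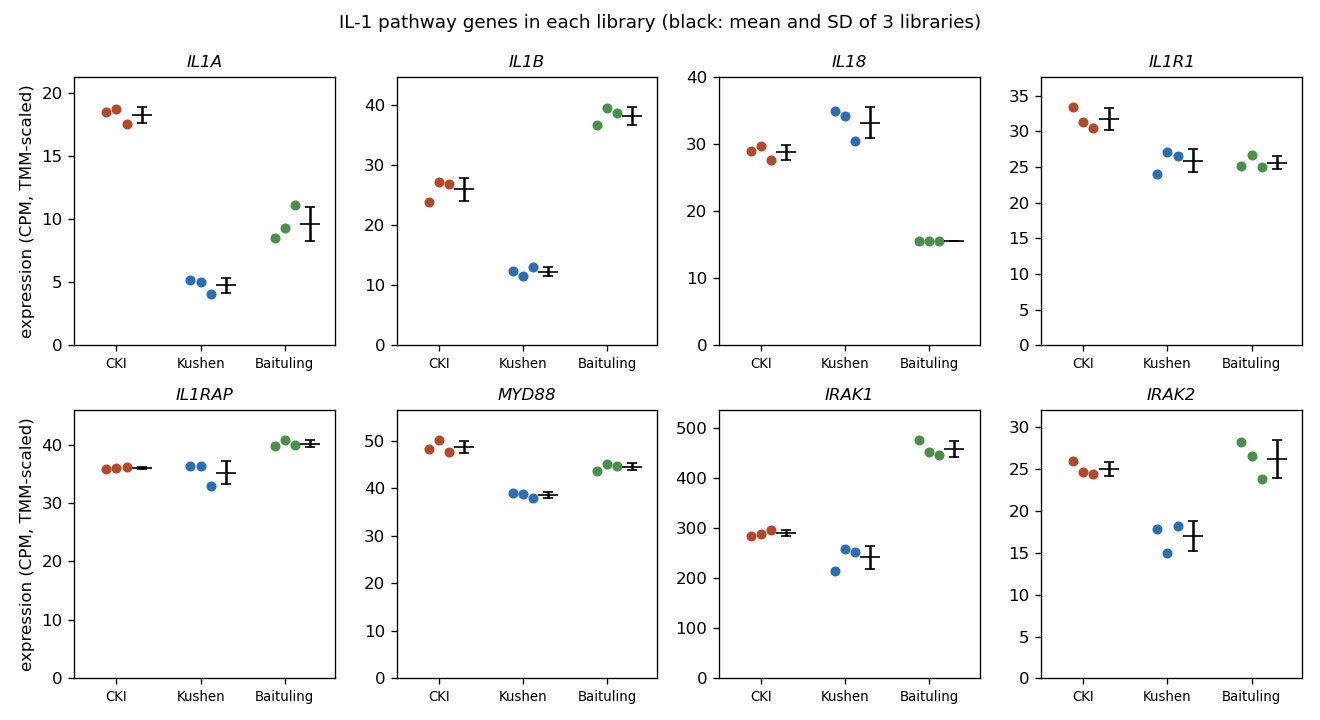
Expression (CPM, TMM-scaled, linear axes from 0) of the 8 IL-1 pathway genes in each library of CKI, Kushen and Baituling; dots are libraries and black bars the mean and SD of 3. The 3 ligands in the upper row each put another treatment on top, with IL1A at 18.3 CPM after CKI, IL1B at 38.3 CPM after Baituling and IL18 at 33.2 CPM after Kushen, while IL1R1 and IL1RAP span a narrow range.

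The receptor chains varied less than the ligands. IL1R1, the signalling receptor for IL1A and IL1B (chromosome 2, 102681004 to 102796334, plus strand, overlapped by the antisense gene IL1R1-AS1), measured 33.4, 31.3 and 30.5 CPM after CKI, 24.1, 27.1 and 26.5 CPM after Kushen, and 25.2, 26.6 and 25.0 CPM after Baituling. CKI was above both others, and the Kushen and Baituling libraries overlapped. The log2 differences were 0.29 ± 0.06 (SE) for CKI against Kushen, 0.31 ± 0.07 for CKI against Baituling and 0.02 ± 0.07 for Kushen against Baituling. IL1RAP, the accessory chain that several IL-1 family receptors share (chromosome 3, 190231840 to 190377539, plus strand), measured 35.9, 36.0 and 36.1 CPM after CKI, 36.4, 36.4 and 33.0 CPM after Kushen, and 39.8, 40.8 and 39.9 CPM after Baituling. The CKI and Kushen libraries overlapped, and Baituling lay above both. Its log2 differences were 0.03 ± 0.05 (SE), -0.16 ± 0.06 and -0.19 ± 0.06 in the same order, and with scaling by library totals CKI was highest and the Kushen and Baituling libraries overlapped.

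MYD88, the adaptor shared by IL-1, IL-18 and most Toll-like receptors (chromosome 3, 38180043 to 38184515, plus strand), followed the order of IL1A over a far narrower range. It measured 48.4, 50.2 and 47.7 CPM after CKI, 39.0, 38.9 and 37.9 CPM after Kushen, and 43.7, 45.2 and 44.7 CPM after Baituling. The log2 differences were 0.34 ± 0.05 (SE), 0.13 ± 0.05 and -0.21 ± 0.05, and CKI stayed the highest with library totals, where the Kushen and Baituling libraries overlapped.

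IRAK1, the kinase that MYD88 first brings to the receptor with IRAK4 (chromosome X, 153275957 to 153285353, minus strand), measured 284, 287 and 295 CPM after CKI, 214, 258 and 251 CPM after Kushen, and 475, 452 and 444 CPM after Baituling. It followed the order of IL1B, with no overlap. The log2 differences were 0.26 ± 0.06 (SE) for CKI against Kushen, -0.66 ± 0.05 for CKI against Baituling and -0.92 ± 0.06 for Kushen against Baituling. Scaled by library totals, the values against Baituling were -0.37 for CKI and -0.71 for Kushen, in the same order and without overlap. IRAK2, which sustains the later part of the signal (chromosome 3, 10206603 to 10285429, plus strand), measured 26.0, 24.7 and 24.4 CPM after CKI, 17.8, 14.9 and 18.2 CPM after Kushen, and 28.3, 26.6 and 23.8 CPM after Baituling. CKI and Baituling overlapped, and Kushen lay below both. Its log2 differences were 0.56 ± 0.08 (SE), -0.07 ± 0.08 and -0.63 ± 0.08.

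In order to set the ligands against the receptors, the order of the 3 treatments was compared gene by gene. Kushen was lowest for IL1A, IL1B, MYD88, IRAK1 and IRAK2, and its libraries lay below every library of the other treatments for each of these. The Kushen mean was also lowest for the receptor chain IL1RAP, where the Kushen and CKI libraries overlapped. CKI was highest for IL1A, IL1R1 and MYD88, and Baituling for IL1B, IRAK1 and, among the receptors, IL1RAP. For IRAK2 the Baituling mean was highest, but its libraries overlapped those of CKI. IL18 alone had Kushen on top. With library totals in place of TMM, 5 of the 8 orders stayed as given and those of IL1RAP, MYD88 and IRAK2 did not.

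A gene was called when its edgeR quasi-likelihood p, Benjamini-Hochberg adjusted over all genes tested, was under 0.05 with a log2 fold change beyond 1 in either direction. For CKI against Kushen, 1.9% of all genes tested were called, 1.7% as higher and 0.197% as lower after CKI. Of the 8 genes, IL1A and IL1B were called, both higher after CKI. Libraries of the 2 treatments did not overlap for 7 of the 8 genes, IL1RAP being the exception, and for 49.5% of all genes. The median log2 difference of the 8 genes was 0.32, and that of all genes 0.01. As the genes were chosen with these values known, nothing is read from the counts in this or the other contrasts.

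For CKI against Baituling, 0 of the 8 genes were called, with 7 at an adjusted p under 0.05 when no fold was asked for. Over all genes, 19.1% were called, 11.2% as higher and 7.91% as lower after CKI. IL1A and IL18 were just short of the threshold of 1, at 0.93 and 0.89, and with library totals both passed it, at 1.21 and 1.18. IL1A also passed without Baituling replicate 3, at 1.04. The groups did not overlap for 7 of the 8 genes, IRAK2 being the exception, against 78.3% of all genes, and the median log2 difference was 0.03 for the 8 genes and 0.03 for all.

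For Kushen against Baituling, 3 of the 8 genes were called: IL18 was higher and IL1A and IL1B were lower after Kushen. Over all genes, 15.2% were called, 8.5% as higher and 6.73% as lower after Kushen. IL1A stood just past the threshold at -1.01, and IRAK1 just short of it at -0.92. The IL1A value was no longer called with library totals (-0.79), with upper quartile factors (-0.94), with at least 10 counts in every library (-0.97), with a fit of the 2 groups alone or of the rows as deposited (-0.99 each), and without Kushen replicate 3 or Baituling replicate 3 (-0.90 each). The groups did not overlap for 7 of the 8 genes, IL1R1 being the exception, against 73.1% of all genes. The median log2 difference was -0.42 for the 8 genes and 0.02 for all.

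**Figure D2:**
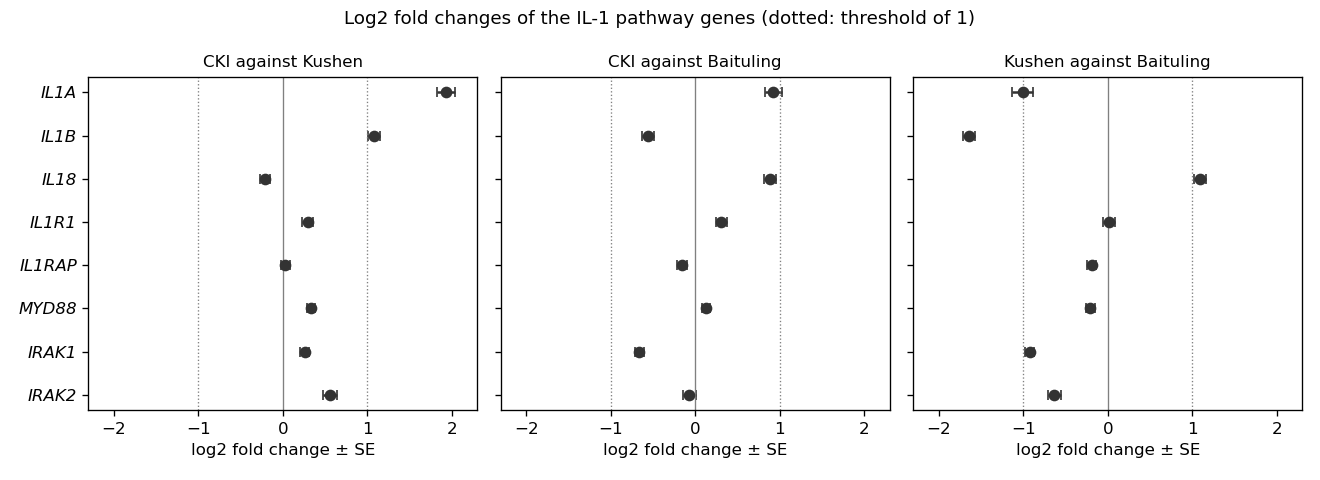
Log2 fold changes with SE of the 8 genes in the 3 contrasts, from the edgeR fit; dotted lines mark the threshold of 1 and points right of 0 are higher in the treatment named first. IL1A and IL1B lie past the line in CKI against Kushen, no gene does in CKI against Baituling, and IL18, IL1A and IL1B do in Kushen against Baituling.

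Ratios within a library do not depend on how libraries are scaled. They were taken on counts per kilobase of exon, so that genes of different length could be set side by side. The level of such a ratio depends on the length used: with the longest transcript, an alternative chosen after seeing the data, IL1A to IL1B averaged 0.567, 0.314 and 0.202 after CKI, Kushen and Baituling, and IL18 to IL1B 1.06, 2.59 and 0.388. The folds between treatments of these 2 ratios do not depend on it. The ratio of IL1A to IL1B was 1.16, 1.03 and 0.973 in the CKI libraries, 0.627, 0.655 and 0.468 in the Kushen libraries, and 0.346, 0.352 and 0.430 in the Baituling libraries. The 3 groups did not overlap, and the mean ratio after CKI was 1.81 times that after Kushen and 2.80 times that after Baituling. Relative to IL1B, IL1A was highest after CKI.

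The ratio of IL18 to IL1B was 1.40, 1.27 and 1.19 after CKI, 3.27, 3.44 and 2.72 after Kushen, and 0.491, 0.454 and 0.465 after Baituling. CKI lay between the 2 injections, which differed 6.68-fold. The summed IL1A and IL1B message for each IL1R1 message was 3.64, 4.17 and 4.13 after CKI, 1.98, 1.66 and 1.71 after Kushen, and 4.64, 4.74 and 5.23 after Baituling. Ligand to receptor was thus lowest after Kushen, 2.23-fold below CKI and 2.73-fold below Baituling (2.06-fold and 2.88-fold with the longest transcript), with no overlap.

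The receptor chains themselves shifted less. IL1RAP for each IL1R1 averaged 0.722 ± 0.0361 after CKI, 0.868 ± 0.0860 after Kushen and 0.997 ± 0.0217 after Baituling (SD, n = 3 each), without overlap between groups. IRAK1 for each IRAK2 averaged 9.30 ± 0.463, 11.6 ± 2.16 and 14.1 ± 0.816 in the same order. CKI and Baituling were apart, and the Kushen libraries overlapped both.

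**Figure D3:**
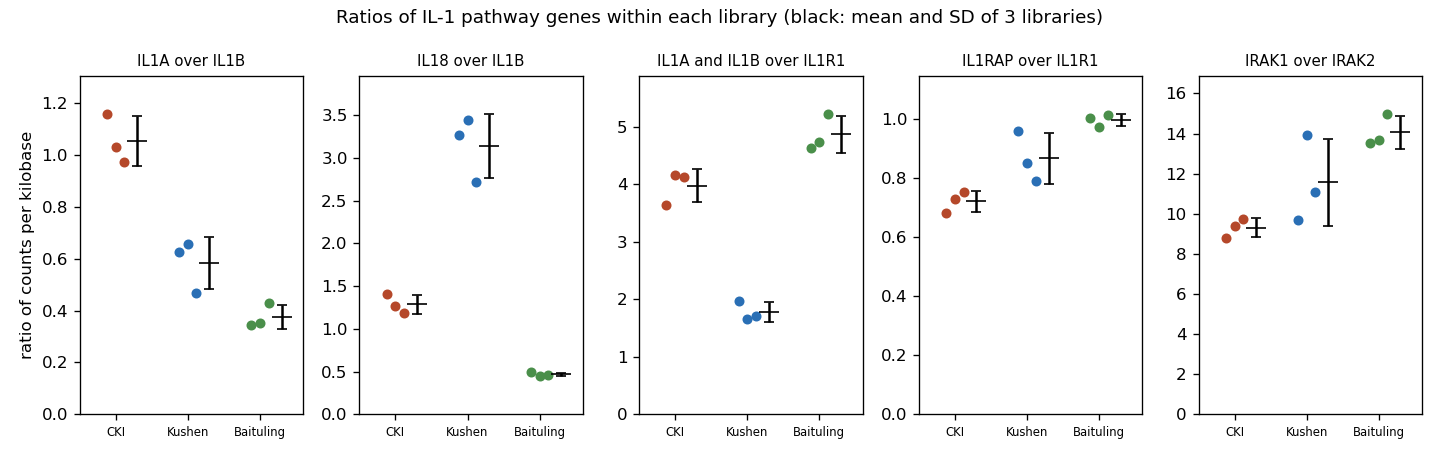
Ratios of counts per kilobase of exon between IL-1 pathway genes in each library, with the mean and SD of 3 libraries in black (linear axes from 0). The ratio of IL1A to IL1B falls from 1.05 after CKI to 0.584 after Kushen and 0.376 after Baituling, and the ratio of IL18 to IL1B is 6.68-fold higher after Kushen than after Baituling.

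Levels of different genes were compared as CPM per kilobase of exon, averaged over the 3 treatments. IRAK1 was the most abundant at 77.2, followed by MYD88 at 10.5, IL18 at 9.93, IL1B at 8.47, IRAK2 at 6.63, IL1A at 5.41, IL1R1 at 3.90 and IL1RAP at 3.31. The kinase IRAK1 kept its place with the longest transcript as the length, and so did IL18, but the other 6 ranks changed; IL1B moved up to rank 2, since its longest transcript is 1617 bases and its joined exons 3009. IL1RAP moved from rank 8 to rank 5. IL18 stayed at rank 3 while IL1B moved from below it to above it and MYD88 from above it to below it. Apart from IRAK1, the order of the genes is therefore not firm.

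The other genes of the pathway were taken from 6 lists written by role, of which 71 of 92 symbols were tested. Over the lists, 7 genes (9.86%, against 1.9% of all genes) were called in CKI against Kushen, all higher after CKI. In CKI against Baituling 25 (35.2%, against 19.1%) were called, 9 higher and 16 lower after CKI, and in Kushen against Baituling 24 (33.8%, against 15.2%), 5 higher and 19 lower after Kushen. IL1R2, TLR9 and CCL2 would not have passed the filter without the treatment in which each was highest. For TLR9 the libraries past the count minimum were 2 of CKI and 1 of another treatment. Without these genes 6, 23 and 23 of 68 list genes were called. The lists were written with results of these libraries known and are not independent evidence of a direction. The adjusted p-values printed for list genes below share this limit.

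Among 8 other ligands and antagonists, only IL1RN, the antagonist that blocks IL1R1, was tested. Its 3 CKI libraries and 3 of the 6 others reached the count minimum of the filter, so it would have passed without CKI. Counts per library were 33 to 48 after CKI, 7 to 12 after Kushen and 2 to 12 after Baituling. It was higher after CKI than after Kushen (log2 difference 1.97 ± 0.36 SE, edgeR adjusted p = 0.00026) and than after Baituling (1.92 ± 0.38, edgeR adjusted p = 0.00016). IL1A was highest after CKI too, as described above. The ligands IL33, IL36A, IL36B, IL36G, IL36RN, IL37 and IL1F10 had at most 9 counts in any library, and IL1F10 had 0 in all 9. A count of 0 allows up to 3 counts, which is 0.118 to 0.166 CPM in these libraries.

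Of 9 other receptors and decoys, 5 were tested. IL1R2, a decoy that binds IL-1 without signalling, had 12 to 21 counts after CKI, 2 to 7 after Kushen and 2 to 8 after Baituling, and it passed the filter through its CKI libraries alone, so that a difference was built into its selection and no p is given. SIGIRR, an inhibitory receptor of the family, was the reverse. It measured 2.76 ± 0.15 CPM after CKI, 4.63 ± 0.76 after Kushen and 20.7 ± 1.1 after Baituling (SD, n = 3 each), a log2 difference of -2.90 ± 0.12 (SE) for CKI against Baituling (edgeR adjusted p = 2.0e-14). The IL-36 receptor IL1RL2 was at 1.90 and 1.88 CPM after CKI and Kushen and 0.67 CPM after Baituling, lower by 1.50 ± 0.25 and 1.48 ± 0.26 log2 units. IL18BP, which captures free IL-18, was lowest after Baituling as well (4.88, 4.80 and 1.93 CPM), the treatment in which IL18 itself was lowest. It overlaps NUMA1 on the opposite strand, and reads of the pair could not be separated. IL1RAPL1 was at 9.90, 9.10 and 5.72 CPM and was not called.

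Of 20 genes that process or release the cytokines, 16 were tested and 0 were called in CKI against Kushen, with 7 at an adjusted p under 0.05 by edgeR when no fold was asked for. Against Baituling, 4 were lower after CKI and 2 after Kushen, and 0 were higher. Over all genes tested, 1.9% were called in CKI against Kushen. Against Baituling, 7.91% of all genes were called lower after CKI and 6.73% lower after Kushen, and 11.2% and 8.5% higher. NLRP3, the sensor of the inflammasome that activates caspase-1, measured 2.80 CPM after CKI, 3.08 after Kushen and 10.1 after Baituling, a log2 difference of -1.85 ± 0.12 (SE) and -1.72 ± 0.12 against Baituling (edgeR adjusted p = 4.2e-11 and 1.7e-10). PYCARD, the adaptor that joins sensor and caspase, rose from 4.53 CPM after CKI to 7.90 after Kushen and 11.1 after Baituling, and was called in CKI against Baituling (-1.29 ± 0.12). These genes were highest in the treatment with the most IL1B message.

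CASP1, which cuts IL1B and IL18, measured 4.65, 4.08 and 6.56 CPM after CKI, Kushen and Baituling and was not called. GSDMD, the pore that lets the cut cytokines out, was at 47.4, 63.8 and 114 CPM and was lower by 1.27 ± 0.06 log2 units after CKI than after Baituling. CAPNS1, the small calpain subunit, was at 293, 331 and 705 CPM and was lower after CKI and after Kushen than after Baituling (-1.27 ± 0.05 and -1.09 ± 0.05). With library totals the calls of GSDMD (-0.98) and CAPNS1 (-0.98 and -0.88) were lost. The remaining 11 tested genes, namely the calpains CAPN1 and CAPN2, CASP4, CASP8, NLRP1, NLRC4, AIM2, CARD8, CARD16, S100A13 and HAX1, were not called in any contrast. Without Baituling replicate 1, CARD8 was called lower after CKI and after Kushen than after Baituling (-1.01 in both), and without Baituling replicate 3, NLRC4, at 4 to 23 counts, was called higher after CKI (1.34). The median log2 difference of the list was 0.03 for CKI against Kushen, -0.63 for CKI against Baituling and -0.59 for Kushen against Baituling.

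**Figure D4:**
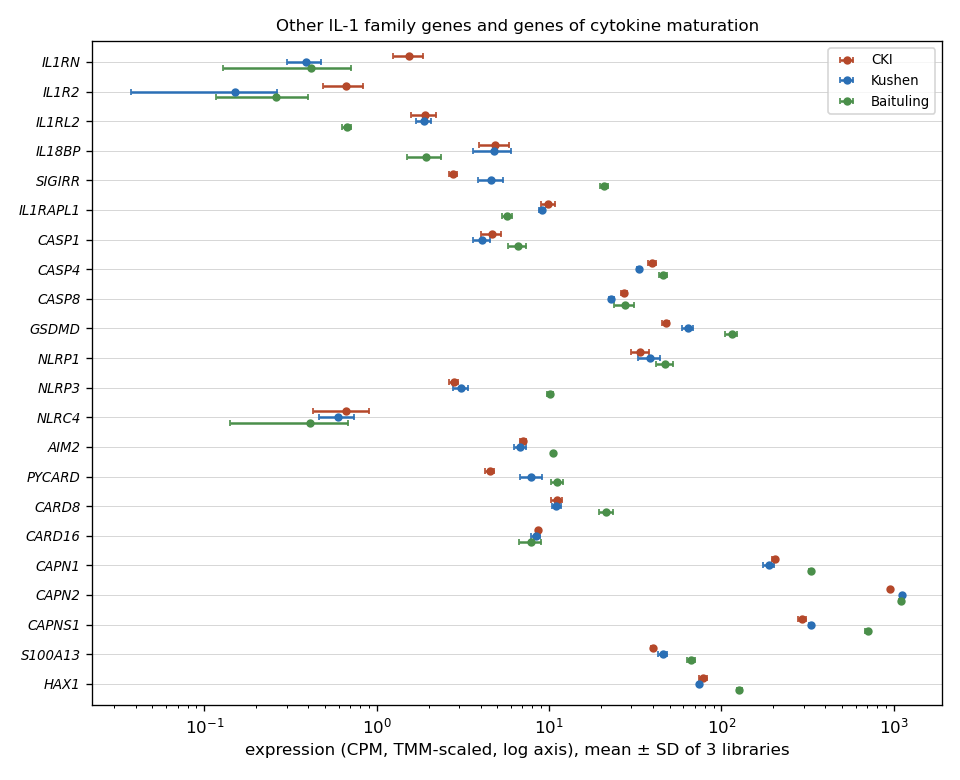
Group means with SD (CPM, TMM-scaled, log axis, n = 3 libraries each) of the tested other IL-1 family genes and of genes that mature or release the cytokines. IL1RN and IL1R2 are highest after CKI, whereas SIGIRR, NLRP3, PYCARD, GSDMD and CAPNS1 are highest after Baituling, SIGIRR at 20.7 CPM against 2.76 after CKI.

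Behind MYD88, 16 of 17 relay genes were tested and 0 were called in CKI against Kushen, with 5 at an adjusted p under 0.05 by edgeR without a fold. Over all genes tested, 1.9% were called in that contrast. Against Baituling, 11.2% of all genes were called higher after CKI and 8.5% higher after Kushen. Nothing is read from the counts of relay genes called. The kinase IRAK4 (14.5, 13.7 and 16.1 CPM) and the ubiquitin ligase TRAF6 (14.0, 14.1 and 12.5 CPM), which act directly after MYD88, were not called in any contrast. In CKI against Baituling 3 genes were higher after CKI: UBE2V1, a partner of the enzyme that builds the ubiquitin chains of TRAF6 (log2 difference 1.71 ± 0.21 SE), PELI2, a ligase that acts on IRAK1 (1.10 ± 0.13), and TAB3, a subunit of the TAK1 kinase complex (1.03 ± 0.05, and 0.99 without CKI replicate 1). UBE2V1 was also higher after Kushen than after Baituling (1.50 ± 0.21). Its level was low, at 6.14, 5.30 and 1.89 CPM after CKI, Kushen and Baituling, with 24 to 43 counts in the Baituling libraries. Overlaps between genes were looked up on the opposite strand only, so whether a gene on the same strand affected the counts of UBE2V1 was not tested. Of 10 Toll-like receptors, which signal through the same adaptor, 7 were tested. TLR4 measured 63.6, 68.8 and 32.8 CPM after CKI, Kushen and Baituling and was called higher in Kushen against Baituling (1.07 ± 0.05). TLR1 was higher after CKI than after Baituling (1.11 ± 0.25), a call lost without Baituling replicate 2 (0.84).

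In order to see how genes that IL-1 is known to induce were ordered, 28 such genes were listed and 26 tested. In CKI against Kushen 5 were called higher after CKI and 0 lower. In CKI against Baituling 1 was higher and 11 lower, and in Kushen against Baituling 1 was higher and 16 lower. Over all genes tested, 1.7%, 11.2% and 8.5% were called higher and 0.197%, 7.91% and 6.73% lower in the treatment named first. The median log2 difference of the list was 0.54, -0.88 and -1.57 in the 3 contrasts, against 0.01, 0.03 and 0.02 over all genes. For 15 of the 26 genes the group mean was lowest after Kushen and highest after Baituling, the order of IL1B. Of the rest, 3 had Baituling on top and CKI lowest, and 1 had Kushen on top. CKI was on top for 5 with Kushen lowest and for 2 with Baituling lowest. These genes also answer to other stimuli, and whether IL-1 moved them was not tested.

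CSF2, the growth factor GM-CSF, measured 14.8 ± 2.20 CPM after CKI, 3.48 ± 0.169 after Kushen and 29.2 ± 0.689 after Baituling (SD, n = 3 each). The log2 difference was 2.09 ± 0.11 (SE) for CKI against Kushen and -3.07 ± 0.11 for Kushen against Baituling (edgeR adjusted p = 1.1e-10 and 5.0e-15). CXCL8, a neutrophil attractant, was at 55.1, 25.0 and 134 CPM and was called in all 3 contrasts (1.14 ± 0.08, -1.28 ± 0.07 and -2.42 ± 0.08), the second of which was lost with library totals (-0.99). IL6 was at 26.6, 18.2 and 120 CPM, with log2 differences of -2.17 ± 0.07 and -2.72 ± 0.07 for CKI and Kushen against Baituling. CXCL1 (4.81, 4.46 and 34.1 CPM) and CXCL2 (8.41, 5.50 and 42.5 CPM), attractants of the same family as CXCL8, gave -2.82 ± 0.11 and -2.34 ± 0.13 for CKI against Baituling. CXCL3 was at 3.33, 1.56 and 5.92 CPM, called in CKI against Kushen (1.09 ± 0.19, and 0.87 and not called without Kushen replicate 2) and in Kushen against Baituling (-1.92 ± 0.18). The group mean of each of these 6 genes was highest after Baituling and lowest after Kushen, with CXCL1 close between CKI and Kushen. All but CSF2 were chosen after their values were seen, so this shared order is no result about the list.

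The adhesion molecule VCAM1 was at 4.53, 7.62 and 64.2 CPM, with log2 differences of -3.82 ± 0.08 (SE) for CKI and -3.07 ± 0.07 for Kushen against Baituling. CSF3, the growth factor G-CSF, gave -3.42 ± 0.21 and -3.99 ± 0.23, and CCL2, a monocyte attractant with 1 to 11 counts in the CKI and Kushen libraries, was at 2.74 CPM after Baituling, the treatment through which alone it passed the filter. LCN2, an iron-binding secreted protein, was at 2.24, 1.32 and 14.8 CPM. These genes separated Baituling from both other treatments and were not called in CKI against Kushen, except CCL2 without CKI replicate 2 (1.68).

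Others followed IL1A rather than IL1B in putting CKI on top. PTGS2, the cyclooxygenase of inflammation, was at 9.20, 2.45 and 7.35 CPM and was called in CKI against Kushen (1.91 ± 0.13) and in Kushen against Baituling (-1.58 ± 0.14). MMP1, a collagenase, was at 255, 101 and 101 CPM, higher after CKI by 1.33 ± 0.04 log2 units than after either injection. IL11 ran as IL18 did, at 118, 152 and 73.9 CPM, and was the list's single gene called higher in Kushen against Baituling (1.04 ± 0.05).

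**Figure D5:**
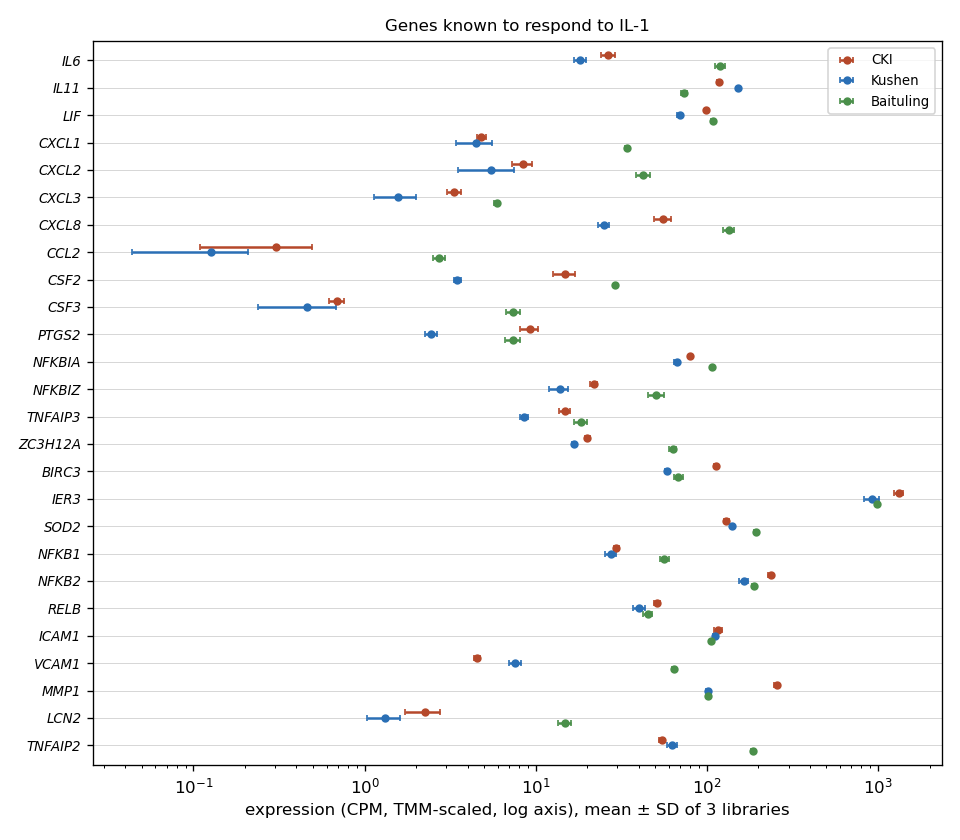
Group means with SD (CPM, TMM-scaled, log axis, n = 3 libraries each) of the 26 tested genes known to respond to IL-1. CXCL8, CSF2, IL6 and VCAM1 are highest after Baituling, VCAM1 at 64.2 CPM, whereas MMP1 and PTGS2 are highest after CKI and IL11 after Kushen at 152 CPM.

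The genes whose levels over the 9 libraries ran most like IL1A and IL1B were sought among 11957 genes, members left out. The 9 points come in 3 treatments and share library scaling, so the correlations mostly describe the order and spacing of the treatments. Nearest to IL1A were TRIB1 (Pearson r = 0.991), ETS2 (0.983), SP110 (0.978), SPAG1 (0.977) and PPP1R15A (0.977), all with CKI on top and Kushen at the bottom. PPP1R15A, a phosphatase subunit of the stress response, was at 373, 191 and 284 CPM after CKI, Kushen and Baituling. Nearest to IL1B were CSF2 (0.995), RBM17 (0.994), INHBA (0.992), MED10 (0.991) and PTPRH (0.990), all with Baituling on top. INHBA, a subunit of activin, was at 18.6, 10.2 and 27.2 CPM. Among the members, IL1A ran closest to MYD88 (r = 0.983) and IL1B to IRAK2 (0.916) and IRAK1 (0.889), while IL1B and IL18 ran opposite (-0.859) and IL1A and IL1B only loosely together (0.649). With library totals in place of TMM, 3 of the 10 nearest genes were the same.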

How the data were processed

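Total RNA of the 9 libraries was sequenced paired-end without strand. Per the labels and the study's methods, the authors trimmed reads with Trim Galore 0.3.7, aligned them to hg19 with STAR 2.5.3a and deposited raw counts per gene, with no normalization. The counting program is not given in the sources used here. The 24566 rows pair Ensembl with Entrez identifiers; 222 repeated a gene with identical counts and were dropped. GENCODE on GRCh37 named 24224 genes and RefSeq another 99. The list symbols IKBKG and CARD17 were not analysed here.

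Counts were fitted with edgeR 4.0.16 in R 4.3.3 (filterByExpr with a minimum count of 10 and total of 15, TMM, glmQLFit and glmQLFTest, two-sided, all 9 libraries, group as the only term), which kept 14195 genes and removed 10149. The biological coefficient of variation was 4.53%. TMM factors ran from 1.075 to 1.099 (CKI), 1.024 to 1.047 (Kushen) and 0.877 to 0.900 (Baituling), and library totals in their place moved the median log2 difference of all genes by 0.075, 0.287 and 0.212. Columns were matched to samples by treatment initial and replicate number. Replicates differed by a chi-square per gene of 1.70 to 6.85, more than sampling noise. An exact permutation test of 3 against 3 cannot give a p below 0.1. The labels do not say at which step replicates were separated, so p-values measure the spread between these libraries. Scripts were tested on simulated data.

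The members and the gene lists were chosen with earlier results of these data known. Named were all members, the called list genes whose log2 CPM averaged 0 or more (up to 3 rises and 3 falls per list and contrast), any tested ligand, receptor or maturation gene, and the 5 genes most correlated with IL1A and with IL1B; IRAK4, TRAF6, CXCL1, CXCL2, CXCL3, CXCL8 and IL6 fall outside this rule and were chosen after their values were seen. Alternatives were library totals, DESeq2 1.42.0 size factors and upper quartile factors, the DESeq2 Wald test, other filters, 2-group fits, rows as deposited, a replicate block and leaving out each library.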

Additional observations from a re-analysis of the deposited data

How the results depend on the processing

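Over all settings the 8 genes gave 432 log2 differences, of which 410 stayed within the spread of the main value, 22 moved, 16 of them with library totals, and 0 called values reversed. The sign changed for 8 of the 432, 4 of them with library totals. With library totals in place of TMM, 2 members were called in CKI against Baituling, 5 of 8 treatment orders were kept, 3 of 10 nearest genes were shared, and the genes called were 326 (304 higher, 22 lower), 3157 (2527, 630) and 2431 (1813, 618), against 270 (242, 28), 2715 (1592, 1123) and 2162 (1207, 955); list genes in CKI against Baituling split into 15 higher and 12 lower instead of 9 and 16. With at least 10 counts in every library the genes called were 102, 1808 and 1415, fewer genes being tested. With no fold threshold they were 5652, 10802 and 10168, with 7, 7 and 7 members and 40, 61 and 57 list genes. With the longest transcript as length, 2 of 8 ranks were kept. Leaving out 1 library gave 2 to 2, 0 to 1 and 2 to 3 members called, 265 to 300, 2677 to 2845 and 2100 to 2264 genes, and 6 to 8, 23 to 27 and 23 to 25 list genes. Same-numbered libraries showed no shared deviation (correlations -0.0746 to 0.123, 1 of 9 over 0.1), and differently numbered ones ran from -0.148 to 0.181. With 3 libraries per treatment, these correlations cannot exclude that the numbers pair samples. With the replicate block 269, 2713 and 2158 genes, 2, 0 and 3 members and 7, 25 and 24 list genes were called. The DESeq2 Wald test called 226, 2664 and 2130 genes. Without IL1R2, TLR9 and CCL2, left out after seeing the data, 6, 23 and 23 list genes were called. With the longest transcript, also chosen after seeing the data, the ratio of IL1RAP to IL1R1 averaged 1.08, 1.30 and 1.50. Depth limits IL1RN, IL1R2 and CCL2, at 1 to 12 counts in their lowest groups.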
